A study of Mus musculus with 18 samples.

Results

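A set of 8 genes that mark alternatively activated and tissue-resident macrophages, Folr2, Mrc1, Cd163, Retnla, Chil3, F13a1, Cbr2 and Pf4, were followed in bone marrow-derived macrophages (BMDMs). They were taken by symbol from the mouse annotation and are 8 of the 49315 genes counted. RNA of BMDMs was sequenced in 18 libraries, 3 biological replicates in each of 6 groups, to compare macrophages with and without HDAC3, a histone deacetylase, during the uptake of dying cells (efferocytosis). The groups combine a genotype label, WT or KO, with no treatment, non-apoptotic cells (NACs) or apoptotic cells (ACs). KO macrophages came from M-HDAC3-/- mice, in which loxP sites flank exon 7 of Hdac3 and Cre is expressed from the lysozyme M locus (Lyz2), so that deletion depends on Cre activity in myeloid cells. The libraries labelled WT correspond to HDAC3 f/f mice in the methods of the study, in which the floxed strain is C57BL/6J. The methods give 3 animals per group, without saying whether the cells of an animal entered several treatments, and the ages of the animals are not given in the sources used here. Bone marrow cells of all groups were grown into macrophages in medium conditioned by L929 cells, a source of macrophage growth factor. The human leukemia line K562 supplied both NACs and ACs, which were left with the macrophages for 45 min and then washed off, with RNA taken 5 h later. ACs had been exposed to UVB for 15 min and rested for 2 h. Untreated macrophages received no K562 cells.

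Alternative activation is the state that macrophages enter under interleukin-4 or interleukin-13, whose receptor acts through the transcription factor STAT6. Retnla, Chil3 and Mrc1 are among its classic readouts in the mouse, and uptake of apoptotic cells can add to the response. Folr2, Cd163, F13a1, Cbr2 and Pf4, with Mrc1, are known from macrophages that reside in tissues, in particular those along vessels and in connective tissue.

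The counts per library totalled between 4704491 (KO untreated replicate 1) and 26421267, with a median of 16477929. Levels are given as CPM, a gene's count relative to the total of its library, scaled by the trimmed mean of M values (TMM), and differences as log2 fold changes. The 10 macrophage markers checked, among them Adgre1, Csf1r and Cd68, summed to between 6080 and 21400 CPM in every library. Hdac3, the targeted gene, did not separate the genotype labels. Untreated, it had 3.55, 48.8 and 30.1 CPM in WT and 33.7, 12.4 and 72.8 CPM in KO libraries. With NACs it had 45.7, 43.0 and 11.4 CPM in WT and 4.70, 32.6 and 43.2 CPM in KO, and with ACs 7.07, 39.4 and 28.4 CPM in WT and 43.4, 10.9 and 17.5 CPM in KO. None of the 3 genotype comparisons of Hdac3 passed the test (adjusted p from 0.645 to 0.841, quasi-likelihood test of edgeR, Benjamini-Hochberg adjusted). The counts cover the whole gene, not exon 7 alone. KO and WT therefore stand below for what a library is labelled, and genotype differences are KO minus WT. The libraries WT untreated replicate 1, WT AC replicate 1 and KO NAC replicate 1 stood apart from the other 15. They had the 3 lowest Hdac3 levels, the 3 lowest sums of dendritic cell markers (43.7, 58.2 and 52.1 CPM, against 182 to 773 CPM elsewhere) and the 3 lowest sums of fibroblast markers (5.98, 7.38 and 7.75 CPM, against 27.5 to 249 CPM). The dendritic cell sums are almost wholly 1 gene, H2-Ab1 (42.6 to 772 CPM). Of the 8 dendritic cell markers, 6 were under 1 CPM in every library. Differences of the 8 genes that rest on these 3 libraries are given with and without them.

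Of the 8 genes, 7 were detected in all 18 libraries, and Retnla had 0 counts in each. Ordered by median CPM per kb of exon, the scale on which genes can be compared, Pf4 was highest at 153, followed by Folr2 at 128, Chil3 at 80.4, Cbr2 at 46.4, F13a1 at 19.4 and Mrc1 at 11.7. Cd163 had a median of 0.207 CPM per kb. Each gene spread widely between libraries, with a ratio of highest to lowest library of 6.07 for Mrc1, 6.51 for Pf4, 7.47 for Cbr2, 9.19 for Chil3, 10.1 for F13a1 and 14.1 for Folr2. For Cd163 the ratio was 30.4, with a lowest count of 1. In bulk RNA of this kind, fewer cells that express a gene and less RNA per cell cannot be told apart.

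**Figure D1:**
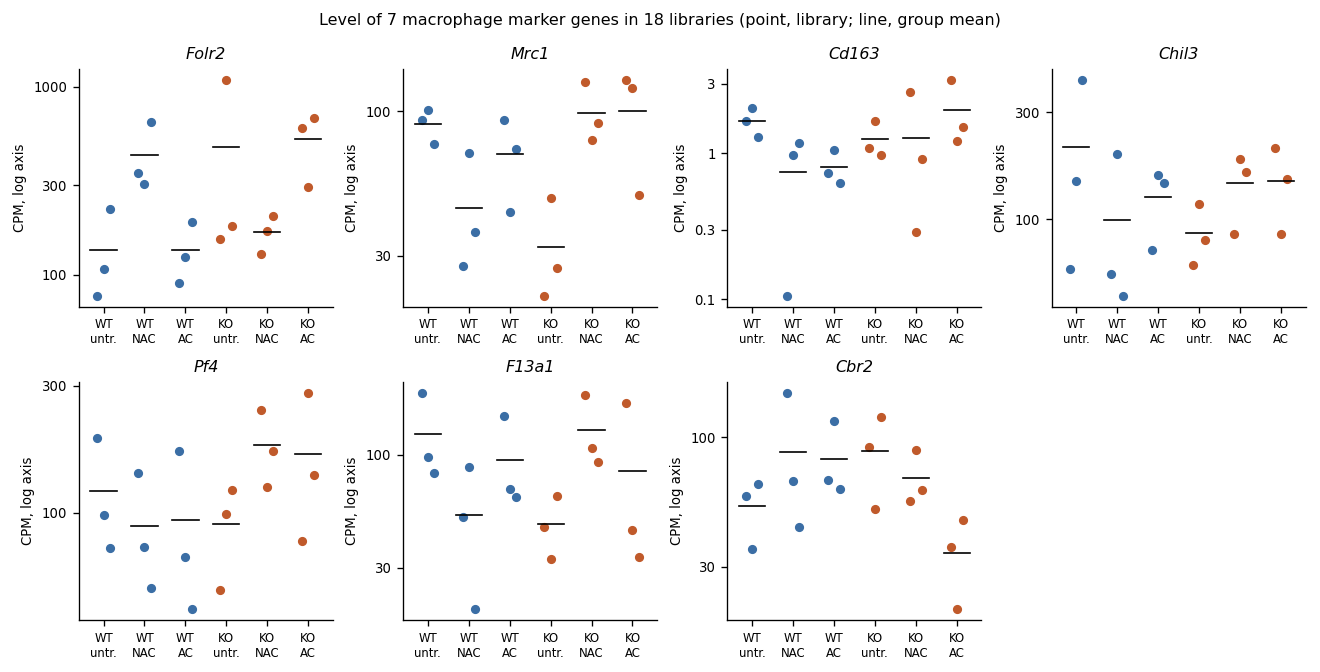
Level of 7 genes in CPM on a log axis, one panel per gene, with libraries grouped by genotype label and treatment. Each point is 1 library and each line the mean of 3, and Retnla, at 0 counts in all 18 libraries, is left out. Mrc1 runs from 21.4 to 130.0 CPM and has its lowest mean in KO untreated libraries.

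The sequences before 5 of the genes are printed because 4 of them (Mrc1, F13a1, Pf4 and Folr2) differed together in one comparison below and Retnla had no counts. They come from the RefSeq promoter table of GRCm38.p6, in which all 8 genes were matched, and each covers up to 250 bases and ends at the base before the gene in the counted annotation. Capitals mark GAGGAAG, letters bound by PU.1, the factor that defines the myeloid lineage, or TTCNNNNGAA, the spaced palindrome read by STAT6, each searched on both strands. The matches to the 2 motifs do not overlap each other.

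Mrc1, chr2:14229164-14229391, forward strand: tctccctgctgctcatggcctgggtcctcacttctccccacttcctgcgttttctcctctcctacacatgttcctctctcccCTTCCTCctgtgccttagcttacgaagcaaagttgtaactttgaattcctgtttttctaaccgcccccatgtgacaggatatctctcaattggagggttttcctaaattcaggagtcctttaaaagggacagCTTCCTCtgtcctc

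F13a1, chr13:37050245-37050494, reverse strand: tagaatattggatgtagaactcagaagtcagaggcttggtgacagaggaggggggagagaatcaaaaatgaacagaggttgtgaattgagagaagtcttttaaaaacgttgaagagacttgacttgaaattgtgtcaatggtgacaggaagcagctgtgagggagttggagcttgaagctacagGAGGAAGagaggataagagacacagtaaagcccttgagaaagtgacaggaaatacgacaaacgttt

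Pf4, chr5:90772185-90772434, forward strand: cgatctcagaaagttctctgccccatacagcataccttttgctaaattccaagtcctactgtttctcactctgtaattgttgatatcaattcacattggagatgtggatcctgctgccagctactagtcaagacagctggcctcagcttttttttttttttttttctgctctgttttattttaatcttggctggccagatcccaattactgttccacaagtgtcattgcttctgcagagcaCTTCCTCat

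Folr2, chr7:101857195-101857440, reverse strand: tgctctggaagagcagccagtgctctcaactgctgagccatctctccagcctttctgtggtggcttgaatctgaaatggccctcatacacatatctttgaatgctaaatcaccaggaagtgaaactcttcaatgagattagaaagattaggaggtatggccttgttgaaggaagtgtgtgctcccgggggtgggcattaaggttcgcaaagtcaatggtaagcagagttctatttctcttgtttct

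Retnla, chr16:48842359-48842551, forward strand: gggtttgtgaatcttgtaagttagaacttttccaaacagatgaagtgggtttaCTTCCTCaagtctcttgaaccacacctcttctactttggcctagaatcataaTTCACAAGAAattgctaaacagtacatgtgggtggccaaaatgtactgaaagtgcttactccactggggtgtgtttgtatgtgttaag

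The PU.1 letters were found in 4 of the 8 windows, those of Mrc1 (168 and 36 bases before the RefSeq start), F13a1 (66 bases), Pf4 (9 bases) and Retnla (197 bases). They occur in 10.6% of all 32851 promoter windows of 250 bases. The STAT6 letters were found in the window of Retnla alone, 145 bases before the start, and occur in 5.85% of all windows. The windows of Folr2, Cd163, Chil3 and Cbr2 held neither. A match is a description of the letters in these windows.

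Each comparison was tested over all genes with enough counts, and 7 of the 8 genes entered every test. Between the genotype labels, 1 of the 7 passed with ACs (Folr2, higher in KO), where 3.75% of all tested genes passed. With NACs 0 of 7 passed in edgeR (background 0.864%), and 4 had an unadjusted p under 0.05, beside 2891 of all 11923 genes. DESeq2's Wald test called 1 of the 7, beside 441 of all genes, and limma-voom called 0, beside 38. Without WT NAC replicate 2, however, 4 passed with NACs in edgeR (Folr2, Mrc1, F13a1 and Chil3), with 3121 of 12663 genes. Untreated, 1 of 7 passed (Mrc1, lower in KO), and 11.6% of all genes did.

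Between treatments the calls were as few. NACs against untreated gave 1 of 7 in WT (Folr2, higher with NACs, background 8.52%) and 1 of 7 in KO (Mrc1, higher with NACs, background 6.54%). ACs against NACs gave 1 of 7 in KO (Folr2, higher with ACs, background 7.38%) and 0 of 7 in WT, where no gene at all passed (background 0.0%, with 493 of 11844 genes at an unadjusted p under 0.05). Of the 7 genes, 1 had an unadjusted p under 0.05 there, and DESeq2 and limma-voom called none of them. ACs against untreated gave 0 of 7 in WT (background 0.0%, 1551 genes at an unadjusted p under 0.05) and 0 of 7 in KO (background 0.0%, 1761 genes). Of the 7, 0 and 2 had an unadjusted p under 0.05, and limma-voom called none in either label. DESeq2 also called none, with no adjusted p given for 1 of the 7 in WT and 6 of the 7 in KO.

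**Figure D2:**
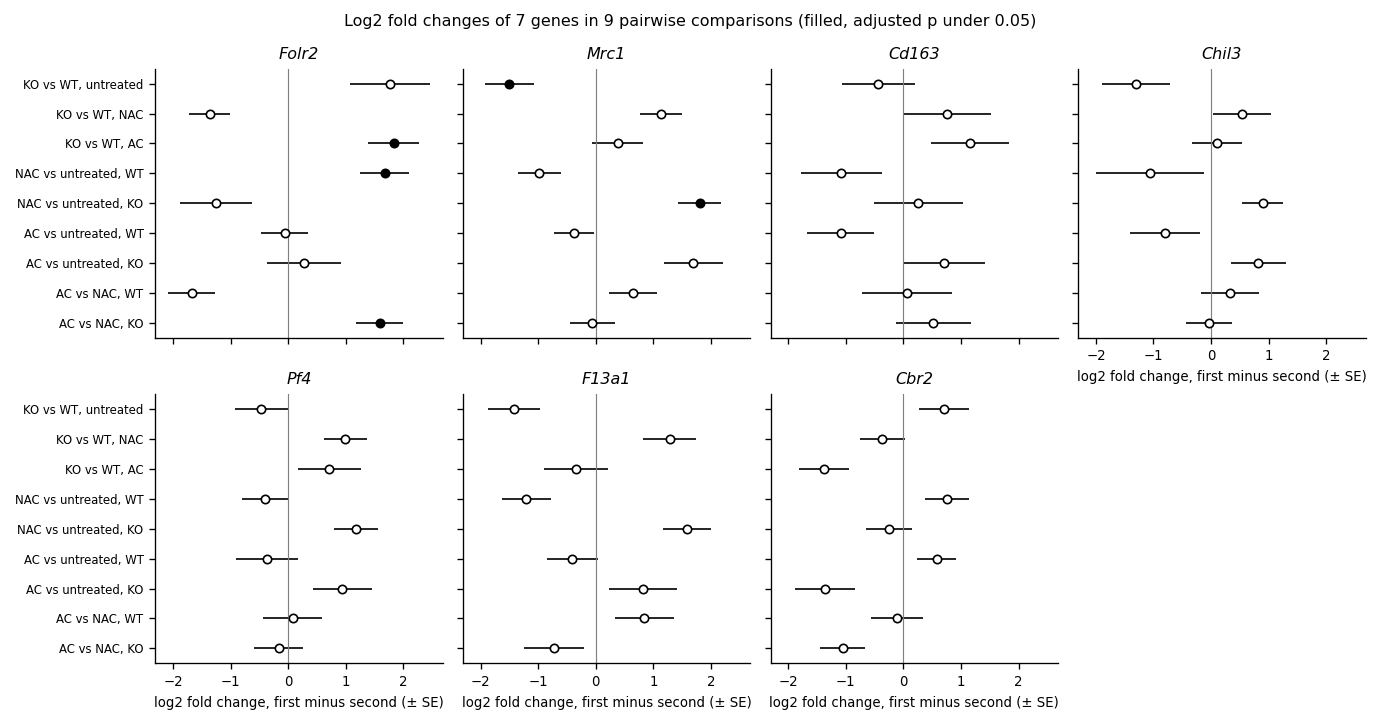
Log2 fold change of each of 7 genes in 9 pairwise comparisons, first group minus second, with bars of 1 SE. Filled points have an adjusted p under 0.05 in edgeR's quasi-likelihood test. Only Folr2, in 3 comparisons, and Mrc1, in 2, have filled points.

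Folr2 (ENSMUSG00000032725; chromosome 7 of GRCm38, 101839988 to 101857194, reverse strand) encodes folate receptor beta, a surface receptor that takes up folate. In untreated macrophages it had 77.3, 108 and 223 CPM in WT and 156, 1091 and 181 CPM in KO. With NACs it had 347, 304 and 647 CPM in WT and 129, 172 and 206 CPM in KO. With ACs it had 90.9, 124 and 190 CPM in WT and 604, 292 and 685 CPM in KO. The labels were apart with NACs and with ACs but in opposite directions, and untreated they overlapped, with KO untreated replicate 2 far above every other library.

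With ACs, Folr2 was higher in KO, at 527 ± 207 CPM (SD, n = 3) against 135 ± 50.5 CPM in WT. On the log2 scale this was a difference of 1.83 (SE 0.447, adjusted p = 0.0337, quasi-likelihood test of edgeR, Benjamini-Hochberg adjusted), and the exact permutation test gave its smallest p, 0.1. The call was lost without WT AC replicate 1 (1.63, adjusted p = 0.0632, same test, as for each value below), KO AC replicate 1 (1.82, 0.313) or KO AC replicate 3 (1.57, 0.0592), and in one fit of all 18 libraries (1.89, 0.0641). Without KO AC replicate 1 no gene passed of 12723 tested. The 10 macrophage markers summed to 18300, 18900 and 19000 CPM in the KO libraries with ACs and to 12000, 11700 and 9590 CPM in the WT ones, apart in the same direction as Folr2. Their median log2 fold change was 0.84 and 0 of 10 passed. A large part of these sums was Lyz2, the locus that carries Cre in the KO mice. Lyz2 alone had 6710, 11250 and 3968 CPM in KO and 5344, 3115 and 3059 CPM in WT, which overlap. Of 11 granulocyte markers tested 1 passed, beside 3.75% of all genes. It was Elane, the gene of neutrophil elastase, which was lower in KO (−2.26, adjusted p = 0.0424). The part of these markers in the difference of Folr2 with ACs was not tested. With NACs the order was the reverse, 169 ± 38.6 CPM in KO and 433 ± 187 CPM in WT, a log2 fold change of −1.36 (SE 0.361) that did not pass (adjusted p = 0.0610, edgeR's quasi-likelihood test). Without KO NAC replicate 1 it was −1.20 (adjusted p = 0.261). It passed without WT NAC replicate 2 (−1.48, 0.00910), with no filter on low counts (−1.29, 0.0163), with DESeq2's size factors (−1.41, 0.0498) and in its Wald test (−1.41, 0.00883).

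Folr2 also differed between treatments within each label. In WT it was higher with NACs than untreated by 1.68 in log2 units (SE 0.426, adjusted p = 0.0213, edgeR's quasi-likelihood test), and every NAC library was above every untreated library. This difference did not pass without WT untreated replicate 1 (1.39, 0.196) or 2 (1.56, 0.120), without WT NAC replicate 1 (1.75, 0.0912) or 3 (1.27, 0.137), and with a GC and length offset (1.43, 0.153). The B cell marker Cd79b, 1 of 3 tested beside 8.52% of all genes, was higher as well (1.63, adjusted p = 0.0308), and 1.23 (0.213) with the offset. The part of Cd79b was not tested. In WT the libraries with ACs were all below those with NACs (−1.68, SE 0.404), but no gene passed in that comparison (adjusted p = 0.898), and the value was −1.49 without WT AC replicate 1. In KO, Folr2 was higher with ACs than with NACs by 1.59 (SE 0.404, adjusted p = 0.0173, edgeR's quasi-likelihood test). This call was lost without KO NAC replicate 1 (0.0907) or 2 (0.0758), or without KO AC replicate 1 (0.158) or 3 (0.0702), and kept with the offset (1.43, adjusted p = 0.0324). The fold changes in those 4 fits were 1.43, 1.58, 1.49 and 1.31, and no gene passed of 12689 tested without KO AC replicate 1. In the same comparison, where 7.38% of all genes passed, 3 of the 5 fibroblast markers tested were higher with ACs: Col1a2 (2.48, adjusted p = 0.0251), Col3a1 (2.26, 0.0162) and Pdgfrb (1.94, 0.0302). Markers of other cell types were also higher there, namely the platelet genes Gp1ba (2.92, 0.0277) and Gp5 (3.20, 0.0377), 2 of 8 tested, Siglecf of eosinophils (2.82, 0.00971), 1 of 4, and Ltf of granulocytes (1.38, 0.0382), 1 of 12. Gp1ba and Gp5 were near the floor, with medians of 0.413 and 0.251 CPM. Each lost its call in 5 of 6 fits with a library left out. Col1a2, Pdgfrb and Ltf lost theirs in 4, Col3a1 in 3 and Siglecf in 2. With the offset Col3a1 (2.06), Gp1ba (2.63), Gp5 (3.14) and Siglecf (2.61) passed (adjusted p from 0.0442 to 0.0490). Col1a2 (2.225, 0.0542), Pdgfrb (1.60, 0.0921) and Ltf (1.025, 0.0947) did not. The part of these markers in the difference of Folr2 was not tested.

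The difference between AC and NAC effects across the labels was tested directly. For Folr2 it amounted to 3.28 in log2 units (SE 0.596, adjusted p = 0.0330, edgeR's quasi-likelihood test), 1 of 7 genes, in a comparison where 0.0765% of all genes passed. The value stayed between 2.70 and 3.65 with each library left out in turn. The adjusted p lay between 0.00774 and 0.149, and the call was lost in 8 of the 12, namely without WT NAC replicate 1 or 3, WT AC replicate 1, any KO NAC library, or KO AC replicate 1 or 3. With the GC and length offset it was 2.92 (adjusted p = 0.0195), and without WT AC replicate 1 and KO NAC replicate 1 together it was 2.89 (adjusted p = 0.0971). The other 6 genes did not pass here, with log2 differences from −1.55 (F13a1) to 0.50 (Cd163).

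Mrc1 (ENSMUSG00000026712; chromosome 2, 14229392 to 14332057, forward strand) encodes the mannose receptor CD206, an endocytic receptor for mannose-bearing glycoproteins. Untreated, it had 92.8, 101 and 76.3 CPM in WT and 21.4, 48.5 and 27.0 CPM in KO. With NACs it had 27.5, 70.3 and 36.4 CPM in WT and 128, 78.6 and 90.2 CPM in KO. With ACs it had 93.2, 43.2 and 73.1 CPM in WT and 130.0, 121 and 49.5 CPM in KO. The labels were apart untreated and with NACs, in opposite directions, and overlapped with ACs. The microRNA gene Mir511 lies within Mrc1 on the same strand.

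Mrc1 was lower in KO than in WT untreated macrophages, at 32.3 ± 14.3 against 89.9 ± 12.4 CPM (SD, n = 3). This corresponds to −1.50 on the log2 scale (SE 0.425, adjusted p = 0.0415, edgeR's quasi-likelihood test). It passed without KO untreated replicate 1, the shallowest library (−1.44, adjusted p = 0.00205), and was lost without any other (adjusted p from 0.0659 without KO untreated replicate 2 to 0.182 without WT untreated replicate 2). It was also lost with no filter on low counts (−1.46, adjusted p = 0.0616). In KO, Mrc1 was higher with NACs than untreated by 1.80 (SE 0.381, adjusted p = 0.0365), again with the call kept only without KO untreated replicate 1 (0.00657) and lost without any of the other 5 (adjusted p from 0.0836 without KO untreated replicate 2 to 0.215 without KO NAC replicate 1). With DESeq2's size factors in the same test it was 1.60 and did not pass (adjusted p = 0.0641), while in DESeq2's Wald test it passed (0.00349). Its level with ACs in KO was also above each untreated KO library (1.69, SE 0.512), without passing (adjusted p = 0.311). With NACs the difference of KO from WT was 1.13 (SE 0.358, adjusted p = 0.0965), and 0.90 (0.375) without KO NAC replicate 1. It passed without WT NAC replicate 2 (1.71, 0.00546) and with no filter on low counts (1.21, 0.0273). Among the alternative settings it ran from 0.58 to 1.37. With a GC and length offset the untreated genotype difference was −0.10 (adjusted p = 0.904), and that of NACs from untreated in KO was 0.46 (adjusted p = 0.562). In these 2 comparisons 11.6% and 6.54% of all genes passed. Of the monocyte markers, Ccr2, the receptor for the chemokine CCL2, passed in the same directions as Mrc1 in both comparisons (−2.13, adjusted p = 0.0344, and 1.86, 0.0459, edgeR's quasi-likelihood test), 1 of 5 tested each time. Of the 10 macrophage markers, Lyz2, which encodes lysozyme and is the locus that carries Cre in the KO mice, did so too (−1.94, 0.0425, and 2.12, 0.0376). With the offset neither passed, at −0.67 and 0.53 for Ccr2 and −1.38 and 1.61 for Lyz2 (adjusted p from 0.184 to 0.603). Itga2b, 1 of 4 platelet markers tested, was higher in KO untreated (3.00, 0.0440), and Pcna, 1 of 6 proliferation markers, was higher with NACs in KO (1.25, 0.0418). With each library left out in turn, the call for Itga2b was lost in 6 of 6 fits and that for Pcna in 5 of 6. The 6 proliferation markers summed to 310 to 453 CPM in WT untreated, 160 to 197 CPM in KO untreated and 318 to 389 CPM in KO NAC libraries, apart in the same directions as Mrc1. With the offset Itga2b was at 2.25 (0.242) and Pcna at 0.02 (0.981). The part of all these markers was not tested.

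Cd163 (ENSMUSG00000008845; chromosome 6, 124304656 to 124330527, forward strand) encodes the scavenger receptor for haemoglobin bound to haptoglobin. It was barely expressed, with 1 to 76 counts per library and a median of 1.13 CPM. Its level was 1.67, 2.04 and 1.29 CPM in WT untreated libraries, 0.105, 0.968 and 1.17 CPM in WT NAC and 0.728, 1.05 and 0.621 CPM in WT AC. In KO it was 1.09, 1.67 and 0.970 CPM untreated, 2.63, 0.286 and 0.911 CPM with NACs and 3.19, 1.22 and 1.52 CPM with ACs. The KO libraries with ACs were all above the WT ones, and the WT libraries with NACs or ACs all below those untreated. None of these differences passed the test. The log2 fold changes were 1.15 (adjusted p = 0.304), −1.08 (0.268) and −1.09 (0.402, edgeR's quasi-likelihood test). The first was 1.11 without WT AC replicate 1, the second −1.08 without WT untreated replicate 1, and the last −1.02 without WT untreated replicate 1 and −1.002 without WT AC replicate 1. Other libraries moved them more: the first was 0.73 without KO AC replicate 1, and the second −0.67 without WT NAC replicate 1.

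Retnla (ENSMUSG00000061100; chromosome 16, 48842552 to 48844461, forward strand) encodes RELMα, a secreted protein induced through STAT6. All 18 libraries had 0 counts, which allows up to 3 counts per library, or 0.114 to 0.638 CPM, from counting error alone. The related gene Retnlg, a granulocyte transcript, had 15 to 179 counts, and Retnlb had 0 or 1.

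Chil3 (ENSMUSG00000040809; chromosome 3, 106147554 to 106167564, reverse strand) encodes Ym1, a secreted chitinase-like protein. Its level was 60.1, 149 and 418 CPM in WT untreated libraries, 56.8, 194 and 45.5 CPM in WT NAC and 73.3, 157 and 145 CPM in WT AC. In KO it was 62.5, 117 and 80.5 CPM untreated, 86.2, 186 and 162 CPM with NACs and 208, 85.6 and 150.4 CPM with ACs. The groups overlapped in every comparison, and with all libraries no adjusted p was under 0.05 in the test used throughout. With no filter on low counts Chil3 passed for the difference between NAC and untreated effects. Without WT NAC replicate 2 the difference of KO from WT with NACs, otherwise 0.53, was 1.58 (adjusted p = 0.00841, edgeR's quasi-likelihood test). The closely related gene Chil4 had at most 5 counts in any library.

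Pf4 (ENSMUSG00000029373; chromosome 5, 90772435 to 90773383, forward strand) encodes platelet factor 4, a chemokine of platelets that resident macrophages also make. Untreated, it had 191, 98.1 and 74.0 CPM in WT and 51.1, 99.2 and 122 CPM in KO. With NACs it had 142, 74.1 and 52.3 CPM in WT and 244, 125 and 170.3 CPM in KO, and with ACs 171, 68.1 and 43.4 CPM in WT and 78.5, 283 and 138 CPM in KO. In KO the NAC libraries were all above the untreated ones, by 1.18 in log2 units (SE 0.389), a difference that did not pass (adjusted p = 0.0852, edgeR's quasi-likelihood test). It was 0.87 (0.352) without KO NAC replicate 1 and 1.11 (0.267) with the GC and length offset, and it passed without KO untreated replicate 1 (0.91, 0.0411) and with library totals alone (1.48, 0.0241). Pf4 had 3 of its 4 highest levels in KO NAC replicate 1, WT untreated replicate 1 and WT AC replicate 1. The 12 megakaryocyte and platelet markers, Ppbp and Itga2b among them, summed to 8.63 to 64.1 CPM, below the level of Pf4 in each of the 18 libraries. Of the 5 platelet markers tested for NACs against untreated in KO, 0 passed, beside 6.54% of all genes, and the median of these markers was −0.997.

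F13a1 (ENSMUSG00000039109; chromosome 13, 36867178 to 37050244, reverse strand) encodes the A subunit of coagulation factor XIII, a transglutaminase that crosslinks fibrin. Untreated, it had 194, 98.0 and 82.7 CPM in WT and 46.3, 32.8 and 64.4 CPM in KO. With NACs it had 51.6, 87.7 and 19.3 CPM in WT and 189, 108 and 93.1 CPM in KO, and with ACs 152, 69.4 and 63.9 CPM in WT and 174, 44.9 and 33.7 CPM in KO. As for Mrc1, the labels were apart untreated and with NACs, in opposite directions. None of the 3 non-overlapping comparisons passed: −1.42 for KO against WT untreated (SE 0.455, adjusted p = 0.0554), 1.29 with NACs (SE 0.462, 0.139) and 1.58 for NACs against untreated in KO (SE 0.420, 0.0526, edgeR's quasi-likelihood test). Under DESeq2's Wald test, the first and the last passed (adjusted p = 0.0319 and 0.0170). Without WT untreated replicate 1 the first was −0.98 (adjusted p = 0.270), and without KO NAC replicate 1 the others were 0.91 (0.368) and 1.18 (0.264). Leaving out other libraries brought calls. Without KO untreated replicate 1 the first was −1.51 (0.00173) and the last 1.63 (0.00828), and the value with NACs was 1.97 (0.0149) without WT NAC replicate 2 and 1.49 (0.0360) without KO NAC replicate 3. With no filter on low counts the value with NACs was 1.36 (0.00777), and it also passed with the replicate number as a block. With the GC and length offset the 3 values were −0.43 (0.623), 0.83 (0.318) and 0.60 (0.469).

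Cbr2 (ENSMUSG00000025150; chromosome 11, 120729489 to 120732114, reverse strand) encodes carbonyl reductase 2, which reduces carbonyl compounds. Untreated, it had 57.8, 35.3 and 64.8 CPM in WT and 91.6, 51.2 and 120.5 CPM in KO. With NACs it had 151, 66.7 and 43.4 CPM in WT and 55.1, 89.0 and 61.3 CPM in KO, and with ACs 67.1, 116 and 61.8 CPM in WT and 36.0, 20.2 and 46.4 CPM in KO. The KO libraries with ACs were below all libraries of WT with ACs, of KO with NACs and of KO untreated. The log2 fold changes were −1.38 (SE 0.430, adjusted p = 0.0716), −1.06 (SE 0.397, 0.0940) and −1.36 (SE 0.516, 0.311, edgeR's quasi-likelihood test), and none passed. Without WT AC replicate 1 the first was −1.49 (0.0680), and without KO NAC replicate 1 the second was −1.19 (0.145). The first passed with DESeq2 (adjusted p = 0.0343) and when genes needed 10 counts in each library (0.0472, edgeR). The second passed with the replicate number as a block, with and without the GC and length offset (lowest adjusted p = 0.0308, edgeR). Among the alternative settings the first ran from −1.44 to −0.92 and the third from −1.47 to −0.69.

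The effect of NACs was compared between the labels. For the difference between NAC and untreated effects, KO minus WT, 4 of the 7 genes passed, in a comparison where 34.8% of all genes did. The values were 2.90 for Mrc1 (SE 0.561, adjusted p = 0.00134), 2.91 for F13a1 (SE 0.706, 0.00539), 1.70 for Pf4 (SE 0.628, 0.0409) and −2.82 for Folr2 (SE 0.836, 0.0171, edgeR's quasi-likelihood test). Cd163, Chil3 and Cbr2 did not pass (adjusted p from 0.0853 to 0.288). Chil3 passed without WT NAC replicate 2 (3.03, 0.00903) or WT untreated replicate 1 (2.27, 0.0390). The median over the 7 genes was 1.70 and that over all genes 0.12, the latter between −0.28 and 0.70 under other settings. With AC in place of NAC, 0 of 7 passed and no gene did (background 0.0%, with 3187 of 13225 genes at an unadjusted p under 0.05). Of the 7, 2 had an unadjusted p under 0.05. DESeq2's Wald test called 2 (Mrc1 and Cbr2), beside 1225 of all 13225 genes, and limma-voom called 0 of the 7 and 0 of all genes. The values ran from −2.13 (Cbr2) to 1.83 (Mrc1).

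The calls for Mrc1, F13a1 and Folr2 held with each of the 12 libraries left out in turn, with adjusted p up to 0.0165, 0.0287 and 0.0471. That for Pf4 was lost in 9 of the 12, with 0.95 (adjusted p = 0.248) without WT untreated replicate 1 as the smallest value. It was kept without WT untreated replicate 3, WT NAC replicate 1 or KO untreated replicate 3. The call for Pf4 was lost as well with DESeq2's size factors (1.29, adjusted p = 0.102), its Wald test (1.29, 0.0941), no filter on low counts (1.47, 0.0630) and one fit of all 18 libraries (1.30, 0.169). Folr2 fell to −1.71 without KO untreated replicate 2, its highest library. Without WT untreated replicate 1 and KO NAC replicate 1 together, Mrc1 kept its call (2.62, adjusted p = 0.0164), and F13a1 (2.03, 0.0601), Folr2 (−2.40, 0.0915) and Pf4 (0.89, 0.352) did not.

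Markers of other cell types passed in the same comparison, where 34.8% of all genes did. Of 4 eosinophil, basophil and mast cell markers tested 0 passed, as for the 1 dendritic cell and 1 erythroid marker tested. Of 5 monocyte markers tested, 2 passed in the direction of Mrc1, F13a1 and Pf4, namely Ccr2 (3.22, adjusted p = 0.00739) and Cx3cr1 (2.54, 0.0209), the fractalkine receptor. Of the 10 macrophage markers 3 passed, with Lyz2 (3.38, 0.00285) and Itgam (1.95, 0.0181), an integrin chain, higher and Cd14 (−1.82, 0.0169), the lipopolysaccharide co-receptor, lower. Because Lyz2 carries Cre in the KO mice, its level is tied to the genotype by design. Of 7 platelet markers tested 2 passed, Gp5 (−7.46, 0.0147) and Gp1bb (−4.10, 0.0195), in the direction opposite to Pf4. Lower too were Cd79b (−2.65, 0.00896) and Cd79a (−3.98, 0.0328), which are 2 of 4 B cell markers, Ltf (−1.85, 0.0267), 1 of 12 granulocyte markers, and Pdgfrb (−2.15, 0.0306), 1 of 5 fibroblast markers. The replication gene Pcna, 1 of 6 proliferation markers, was higher (1.96, 0.00739). Some of these values rest on single libraries. Gp5, at a low level, was −3.14 (adjusted p = 0.427) without KO untreated replicate 2. With a library left out, Itgam was as low as 1.17 and Cx3cr1 as low as 1.47, each losing its call in 6 of 12 fits, among them those without WT untreated replicate 1, KO NAC replicate 1, WT NAC replicate 1 or WT NAC replicate 3. With the GC and length offset Lyz2 (2.63, adjusted p = 0.0289) passed and the other 11 did not. Of those 11, Ltf (−2.07, 0.0522), Cx3cr1 (2.09, 0.0875), Gp5 (−6.15, 0.0897), Cd79b (−2.01, 0.0788) and Cd79a (−3.15, 0.168) kept most of their size, Gp1bb (−2.84), Itgam (1.32), Cd14 (−1.17) and Pdgfrb (−1.50) were smaller, and Ccr2 (1.22) and Pcna (0.12) changed most. The part of these markers in the differences of the 4 genes was not tested.

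The libraries also differed in how counts depended on GC content. The slope of a gene's level, relative to its mean over libraries, on GC content ran from −0.58 to 0.70 log2 units per 10 points of GC. It was negative in the 3 WT untreated libraries (−0.58, −0.58 and −0.30) and the 3 KO NAC libraries (−0.42, −0.20 and −0.25), and positive in the 3 KO untreated libraries (0.18, 0.53 and 0.70). In WT NAC libraries it was 0.43, −0.14 and 0.34. Mrc1 has the lowest GC content of the 8 genes, 41.3%. Chil3 has 45.3%, F13a1 45.5%, Retnla 46.7%, Cd163 46.9%, Pf4 50.6%, Folr2 52.5% and Cbr2 the highest, 57.4%. Over the 18 libraries the slope had r = −0.78 with Mrc1, −0.69 with F13a1, −0.35 with Pf4, 0.61 with Folr2 and 0.41 with Cbr2. With Chil3 it was −0.18 and with Cd163 −0.22, so r did not follow GC content gene by gene.

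With a GC and length offset in the same fit, 0 of the 7 genes passed for the NAC and untreated difference, and 1209 of 12979 genes did. The value of Mrc1 was then 0.80 (adjusted p = 0.254), of F13a1 1.35 (0.186), of Pf4 1.56 (0.0941) and of Folr2 −2.47 (0.0853). Cbr2 was at −0.90 without the offset and 0.37 with it, neither of which passed. What part the slope has in the differences was not tested, and because it moves with group it cannot be told apart from an effect of group on genes of low or high GC content.

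**Figure D3:**
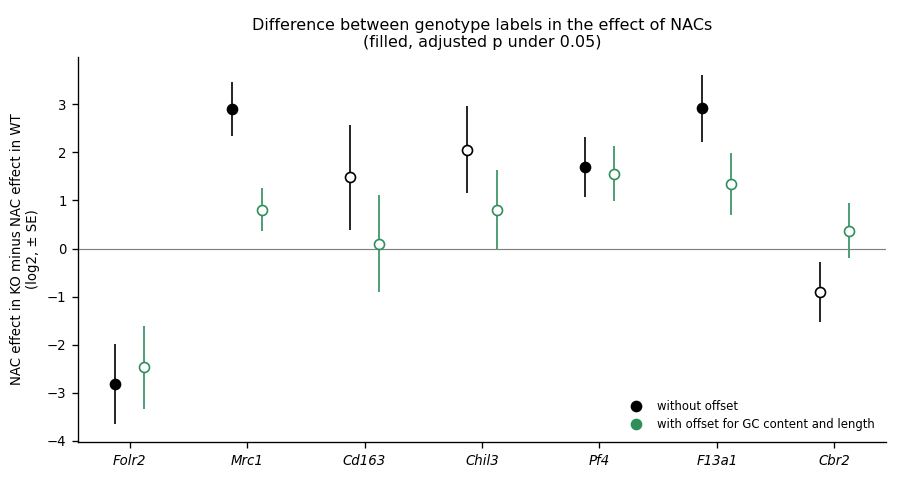
Effect of NACs in KO minus that in WT, on the log2 scale, for 7 genes, with bars of 1 SE, without an offset (black) and with one for GC content and length (green). Filled points have an adjusted p under 0.05: 4 without the offset and 0 with it. Mrc1 moves from 2.90 to 0.80, and Folr2 from −2.82 to −2.47.

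**Figure D4:**
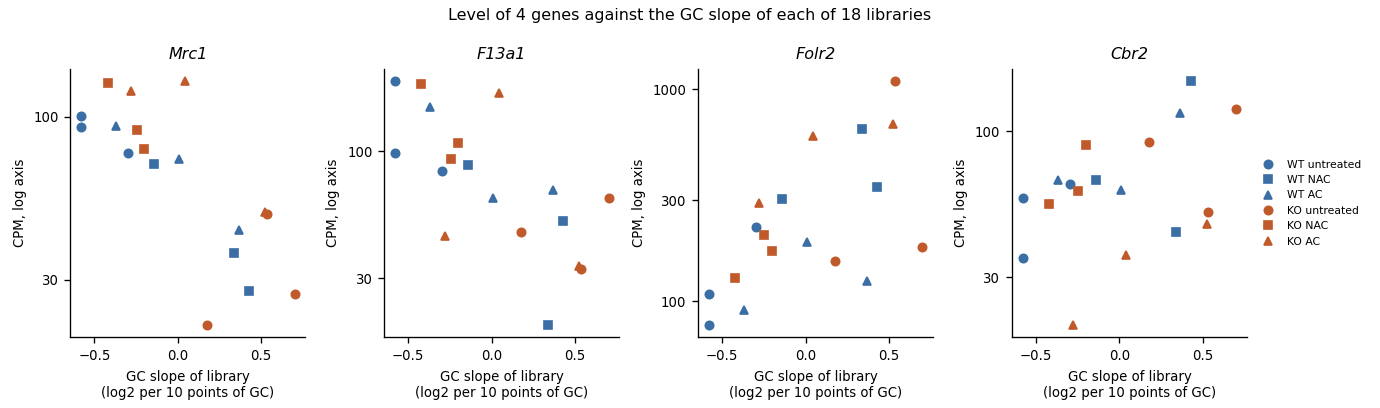
Level in CPM on a log axis of Mrc1, F13a1, Folr2 and Cbr2 against the GC slope of each of 18 libraries, with shape for treatment and colour for genotype label. Mrc1 and F13a1 are higher where the slope is negative (r = −0.78 and −0.69), and Folr2 where it is positive (0.61).

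Other genes of the same programmes were taken from 3 lists of genes outside the 8. Of 30 further alternative activation genes, 24 or 25 were tested in each comparison. With ACs, 2 of 25 differed between the labels, where 3.75% of all genes did. Egr2, an early-response factor, was higher in KO (2.13, adjusted p = 0.0240) and Clec7a, the receptor dectin-1, lower (−2.49, 0.0214, edgeR's quasi-likelihood test). Untreated, 3 of 24 passed, beside 11.6% of all genes. Il4ra was higher in KO (1.53, 0.0392), and Il13ra1 (−3.01, 0.0183) and Il10 (−2.52, 0.0438) were lower. Il4ra and Il13ra1 encode the chains of the receptor shared by interleukin-4 and interleukin-13, and they changed in opposite directions. Ccl17 and Alox15, known targets of interleukin-4, reached at most 5 and 4 counts.

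With NACs against untreated, Il13ra1 was lower in WT (−2.07, adjusted p = 0.0100) and higher in KO (3.02, 0.0353, edgeR's quasi-likelihood test), and it was the one listed gene of that programme to pass in either label (1 of 24 and 1 of 25, beside 8.52% and 6.54% of all genes). With ACs against NACs in KO 5 of 25 passed, beside 7.38% of all genes. Egr2 (1.60), Fn1 (1.86) and Klf4 (1.58) were higher and Clec7a (−2.34) and Il13ra1 (−2.14) lower (adjusted p from 0.00143 to 0.0303). The medians over the list lay between −0.69 and 0.71 in the 9 pairwise comparisons, where those over all genes lay between −0.11 and 0.10.

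Of 30 further resident macrophage genes, 26 were tested. With ACs 2 of 26 passed, beside 3.75% of all genes. C1qc, a chain of complement C1q (1.48, adjusted p = 0.0472), and Gas6, a bridging ligand for dying cells (1.43, 0.0486), were higher in KO (edgeR's quasi-likelihood test). Untreated 4 passed, beside 11.6% of all genes. Hpgd (−2.92, 0.0183), Ms4a7 (−1.99, 0.0248) and Selenop (−2.28, 0.0298) were lower in KO, and Fcgrt, the neonatal Fc receptor, was higher (1.53, 0.0410). The same 3 genes, Hpgd (2.23), Ms4a7 (1.64) and Selenop (2.11), were higher with NACs than untreated in KO (adjusted p from 0.0353 to 0.0400), 3 of 26 beside 6.54% of all genes. Selenop was lower with NACs in WT (−1.64, 0.0283), 1 of 26 beside 8.52%. With ACs against NACs in KO 4 of 26 passed, beside 7.38%, of which Cd5l (1.75), a secreted scavenger receptor-like protein, and C1qc (1.29) were higher and Hpgd (−2.10) and Ms4a7 (−1.50) lower (adjusted p from 0.00680 to 0.0382). Lyve1 and Timd4, markers of resident macrophages, reached at most 3 and 4 counts.

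Of 18 classical activation genes, 11 to 13 were tested. Those that passed were 1 of 11 between the labels with ACs and 1 of 13 untreated, 2 of 12 for NACs against untreated in WT and 1 of 12 in KO, and 2 of 12 for ACs against NACs in KO, beside 3.75%, 11.6%, 8.52%, 6.54% and 7.38% of all genes. Cd86, a costimulatory ligand, was lower in KO untreated (−3.68, adjusted p = 0.0183) and with ACs (−2.49, 0.0263), lower with NACs in WT (−2.01, 0.00895) and higher with NACs in KO (3.14, 0.0353, edgeR's quasi-likelihood test). With ACs against NACs in KO, Cd86 (−2.45, 0.00131) and Marco, a scavenger receptor (−1.88, 0.0382), were lower. Il1b was lower with NACs than untreated in WT (−2.32, 0.0332). Nos2, the inducible nitric oxide synthase, reached at most 11 counts.

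These calls for listed genes were as sensitive as those for the 8. With the GC and length offset no gene of all those tested passed between the labels untreated, or between NACs and untreated in WT or KO, so that the calls above for Il13ra1, Il4ra, Il10, Hpgd, Ms4a7, Selenop, Fcgrt, Cd86 and Il1b in those comparisons were lost. With the offset the untreated values were −1.63 for Il13ra1, −1.48 for Hpgd and −2.55 for Cd86. Between the labels with ACs, the calls for Clec7a, Egr2, C1qc, Gas6 and Cd86 were kept with the offset. Clec7a was then smaller, at −1.33 (adjusted p = 0.0448, edgeR's quasi-likelihood test) against −2.49 without it. For ACs against NACs in KO those for C1qc (adjusted p = 0.0416) and Cd86 (0.0140) were kept, with a value of −2.08 for Cd86, and the other 9 did not pass (adjusted p from 0.0583 to 0.147). Of these, Marco (−2.07), Klf4 (1.47) and Cd5l (1.55) stayed near their values without the offset, Egr2 (1.26), Fn1 (1.22) and Ms4a7 (−0.91) were smaller, and Clec7a (−1.09), Il13ra1 (−1.09) and Hpgd (−0.84) were smallest relative to them. No call for a listed gene in a pairwise comparison held with every library left out. All calls between the labels with ACs were lost without KO AC replicate 1, as were all for ACs against NACs in KO. Those between the labels untreated were lost without WT untreated replicate 2 or 3 or KO untreated replicate 3, those for NACs against untreated in WT without WT untreated replicate 1 or WT NAC replicate 1 or 3, and those in KO without any library but KO untreated replicate 1. Values that shrank most with a library left out were those of Marco for ACs against NACs in KO (to −0.76), Cd86 between the labels with ACs (to −1.65), and Selenop (to −0.88) and Il1b (to −1.46) for NACs against untreated in WT.

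For the NAC and untreated difference between labels, 9 of 25 alternative activation genes passed (3 higher, 6 lower), 10 of 26 resident genes (6 higher, 4 lower) and 4 of 13 classical genes (3 higher, 1 lower), beside 34.8% of all genes. The 5 of the first list with the smallest p were Il13ra1 (5.22), Cish (−3.13), Il4ra (−1.90), Il10 (3.35) and Socs1 (−2.48). Those of the second were Selenop (3.87), Hpgd (3.67), Fcgrt (−2.15), Ms4a7 (2.66) and Gatm (2.25). Those of the classical list were Cd86 (5.27), Il1b (3.97), Irf5 (−1.75) and Il1a (5.31). The value of Il1a ran from 1.49 to 5.54 with each library left out in turn (adjusted p up to 0.482), and its call was lost in 6 of the 12 fits, without WT untreated replicate 1, WT NAC replicate 1 or 3, KO untreated replicate 1 or 3, or KO NAC replicate 1. With the offset the calls kept were those for Il13ra1, Cish and Irf4 in the first list, Selenop in the second and Cd86 in the classical list. Il13ra1 was then 3.30 and Selenop 2.185. The named genes that lost their calls were smaller as well. In the first list these were Il4ra (−0.99), Il10 (1.66) and Socs1 (−1.225). In the second they were Hpgd (1.98), Fcgrt (−1.21), Ms4a7 (0.81) and Gatm (0.43). In the classical list they were Il1b (2.65), Irf5 (−0.64) and Il1a (3.37). With each library left out in turn, 3, 8 and 3 genes of these lists held in all 12 fits.

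Patterns over the 18 libraries were compared on log2(CPM + 1) among 13662 genes. The genes most like Mrc1 were Fnip2 (r = 0.98), Slc25a24 (0.97) and Ddx5 (0.97), and among those most like Folr2 were Sdc1 (0.93) and Plp2 (0.92). For Chil3 they were Serpinb1a (0.91), Slfn1 (0.82) and Hsd11b1 (0.81). For F13a1 they were Adgre4 (0.89), Zfp330 (0.89) and Gsap (0.88), and for Cbr2 Fam213b (0.90), Rtn2 (0.90) and Ocel1 (0.90). For Pf4 the closest was Tmem273 (0.83) and for Cd163 Rhoj (0.83).

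Among the 8 genes themselves, the highest correlation was that of Mrc1 with F13a1 (r = 0.65, rho = 0.67), and the lowest were those of Mrc1 with Cbr2 (−0.65), Folr2 with F13a1 (−0.63) and Cd163 with Cbr2 (−0.61). The next in size was Mrc1 with Cd163 (0.45). All these values describe 18 libraries that also share the GC slope given above.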

How the data were processed

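The deposited files hold raw counts of reads per gene, one table per library, made by the authors from paired-end reads of libraries prepared with the NEBNext Ultra II kit. The submitters' processing notes name Trimmomatic 0.36, STAR 2.5.2b, featureCounts from Subread 1.5.2 and GRCm38. The annotation release and the strand setting of the counting are not given in the sources used here. Folr2 overlaps Gm10602 and Gm45319 on the opposite strand, so reads of these genes may not be separated from its own. Exon lengths came with the deposited counts, and GC content from the transcripts of GENCODE M21. Symbols came from a list of mouse gene names, with GENCODE M21 for IDs without one there. Of the 49315 gene IDs, 49056 were found in either source.

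Genes were kept by edgeR's filterByExpr (minimum count 10, minimum total 15), scaled by TMM and tested with the quasi-likelihood test of edgeR 4.0.16 in R 4.3.3, each pair of groups apart and each interaction over its 4 groups. P-values were adjusted by Benjamini-Hochberg over all genes tested, with a threshold of 0.05. The biological replicates are 3 per group, and p-values measure the spread between them. An exact two-sided permutation test of 3 against 3 cannot go below 0.1. A count of 0 was taken to allow 3 counts, which, like depth, covers counting error only.

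A fold change was printed for a gene where it passed, or where its groups did not overlap and the log2 fold change was at least 1 in size. Interactions were printed where they passed and otherwise as ranges. Some results that would belong to this set are not reported here. Up to 5 passing genes per list and comparison were named. The 8 genes, the lists and the tests were chosen with earlier results of these data known. Alternatives were DESeq2 1.42.0 (Wald test, size factors), limma 3.58.1 (voom), other filters, library totals, all 18 libraries in one fit, an offset for GC content and length fitted with mgcv 1.9.3, the replicate number as a block, and each library left out in turn. Leaving out 3 libraries together, and the offset and left-out libraries for listed genes, were added after seeing the data. The procedures were tested on simulated data. Correlations over libraries are descriptions on log2(CPM + 1).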

Additional observations from a re-analysis of the deposited data

Results flagged for a closer look

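A total of 5 effects of treatment differed between the genotype labels by the test of the difference itself, and they are listed here for that reason. The difference between AC and NAC effects, KO minus WT, was 3.28 on the log2 scale for Folr2. The difference between NAC and untreated effects was −2.82 for Folr2, 2.90 for Mrc1, 2.91 for F13a1 and 1.70 for Pf4. With the GC and length offset, the first kept its call and the other 4 did not. Of the 12 fits that left out 1 library, the call for Folr2 in the AC and NAC difference was lost in 8 and that for Pf4 in 9.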

How the results depend on the processing

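No log2 fold change of the 8 genes that passed, or whose groups did not overlap and which was at least 1 in size, changed sign under any alternative, but most calls depended on single libraries or on settings. The numbers of the 7 tested genes called, which are 1 for KO against WT with ACs, 0 with NACs, 1 untreated, 0 and 1 for ACs against NACs in WT and KO, 1 and 1 for NACs against untreated in WT and KO, and 1, 0 and 4 for the label differences of AC against NAC, AC against untreated and NAC against untreated, moved as follows. KO against WT with ACs gave 2 with at least 10 counts in every library, with DESeq2's Wald test and with the GC and length offset, and 0 in one fit of all 18 libraries. Beside Folr2, the second gene was Cbr2 under the first 2 of these settings, and with the offset it was neither Cbr2 nor Cd163. With NACs it gave 1 with DESeq2's size factors, its Wald test or the replicate block, and 3 with no filter. Untreated, it gave 3 with library totals or DESeq2's Wald test, 2 with at least 10 counts, limma-voom or all 18 libraries, and 0 with the offset, with or without the block. ACs against NACs gave 1 in WT with no filter, and in KO 0 with all 18 libraries and 2 with the replicate block, with or without the offset. NACs against untreated in WT gave 0 with library totals, all 18 libraries or the offset, 2 with at least 10 counts and 3 with the replicate block. In KO it gave 4 with library totals, 3 with no filter, 2 with at least 10 counts, DESeq2's Wald test or limma-voom, and 0 with DESeq2's size factors, the offset or the replicate block. The label difference of AC against NAC gave 0 with library totals, all 18 libraries or the 3 libraries left out together, and that of AC against untreated gave 2 with DESeq2's Wald test. That of NAC against untreated gave 0 with the offset, with or without the block, and 2 with the 3 libraries left out (Mrc1 and Chil3). Under other settings the same number can hold other genes: there no filter gave Mrc1, Folr2, F13a1 and Chil3, while DESeq2's size factors, its Wald test and all 18 libraries gave 3 without Pf4, whose call was lost in 7 of 11 alternatives (0.89 to 2.27, adjusted p from 0.00577 to 0.352, with edgeR except DESeq2 and limma-voom where named). The causes were not tested. The calls over all genes moved as well: with ACs 461 genes passed between the labels, against 788 with at least 10 counts, 1373 with DESeq2's Wald test and 1210 with the offset. Fewer passed with limma-voom (404), library totals (383) and the replicate block (373). Of the 461, 97 were higher and 364 lower in KO, against 527 and 683 with the offset.

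With each library left out in turn, the counts ran from 0 to 1 for KO against WT with ACs, 0 to 4 with NACs (0 to 3121 of all genes), 0 to 2 untreated, 0 to 1 for ACs against NACs in KO, 0 to 3 for NACs against untreated in WT and in KO, 0 to 1, 0 to 2 and 3 to 4 for the 3 label differences. Over all genes, the calls for the NAC and untreated label difference ran from 840 to 5639 among alternatives, beside 4530. The median of all genes in that comparison, 0.12 with 2869 higher and 1661 lower calls, was −0.27 with DESeq2's size factors (2284 and 2726) and 0.70 with library totals (3601 and 400), and from −0.28 to 0.29 under the rest. Library totals moved Folr2 there to −2.17 (adjusted p = 0.0513, edgeR). Deviations of same-numbered libraries were correlated above 0.1 in every replicate for 1 pair of groups (WT AC and KO NAC, r = 0.58, 0.22 and 0.33) and for no other, so the replicate block rests on numbers only. With it, 4280 genes passed for that label difference and 0 for NACs against untreated in KO, where Mrc1 was 1.81 (adjusted p = 0.0940, edgeR). Depth limits Cd163, which had 1 count in its lowest library.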
